A study of Homo sapiens with 6 samples.

Results

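The nuclear genes of oxidative phosphorylation were examined in Kasumi-1 cells with and without I3. They were taken by symbol from the deposited expression table: protein-coding genes that begin with NDUFA, NDUFB, NDUFC, NDUFS, NDUFV, UQCR, COX4 to COX8 or ATP5, together with SDHA to SDHD and CYC1, and without the NDUFAF assembly factors. GENCODE release 29 holds 92 such genes, and 89 of the 29810 genes in the table were among them (15616 genes of the table were protein-coding). The other 3, NDUFC2-KCTD14, COX6A2 and COX7B2, were not analysed here. By complex, 37 genes belonged to complex I, 4 to complex II, 10 to complex III, 17 to complex IV and 21 to complex V. NDUFA4 and its paralog NDUFA4L2 were counted with complex IV, because the NDUFA4 protein is known to be a complex IV subunit.

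Oxidative phosphorylation takes place in the inner mitochondrial membrane. Complexes I and II pass electrons from NADH and succinate to ubiquinone, complex III passes them to cytochrome c, and complex IV passes them to oxygen. Complexes I, III and IV pump protons as they do so, and complex V, the ATP synthase, lets the protons flow back and makes ATP. A few catalytic subunits are encoded in mitochondrial DNA, and nuclear genes encode all the others. Acute myeloid leukemia (AML) cells, and leukemic stem cells in particular, are known to depend on this pathway.

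mRNA-seq was performed on 6 libraries of Kasumi-1, a line grown from human AML blasts in which RUNX1 is fused to RUNX1T1. In the I3 group, 3 libraries came from cells incubated with 0.25 μM I3, a histone deacetylase inhibitor known by its code name, for 48 h. The name of the table itself has another compound number and a figure legend of the study a longer incubation, and the labels were followed here. In the control group, 3 libraries came from cells given the same amount of its solvent, DMSO. All 6 are of a single line under a single dose and time, and the labels do not say that the replicates were separate cultures, so p-values measure only the spread between these libraries. The value of a gene is its FPKM, the fragments counted for it, scaled to its length and to the fragments of the library. The length that fits the values is that of all annotated exons together, such as 507 bases in COX8A and 14160 in SDHC. Exons that the cells do not use would lower the FPKM, so a ranking of genes here is by FPKM, not by transcript number. The levels of genes that share bases with another gene model are more uncertain still.

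Depth was 17500311 to 18193329 reads per library, rebuilt from the FPKM values. The groups overlapped by little, with 17798614 in the deepest control and 17794738 in the shallowest I3 library. Genes at 0 FPKM numbered 8987, 9441 and 9492 in control and 8921, 8905 and 8781 in I3 libraries, without overlap. Why was not tested. Of 7 markers of Kasumi-1 and myeloid cells, all 7 were present, with a summed level of 8133 to 8966 FPKM in control libraries and 8092 to 8666 FPKM in I3 libraries. MPO made up most of that sum, and KIT had a mean of 207 FPKM. Of 10 markers of other cell types, 6 were in the table. EPCAM, an epithelial adhesion gene, was at 28.7 to 31.1 FPKM in control and 28.2 to 31.6 FPKM in I3 libraries, and the other 5 summed to at most 1.25 FPKM in any library.

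No nuclear oxidative phosphorylation gene was called as changed by I3. The test was limma on log2(FPKM + 0.5), over 12960 genes whose mean reached 0.5 FPKM. Of the 89 genes, 77 reached that level and were tested, and 12 did not. With the thresholds of the study, a Benjamini-Hochberg adjusted p of 0.05 and an absolute log2 fold change of 0.58, limma called 0 of the 77, against 0 of 12960 genes (0%). The smallest adjusted p among the 77 was 0.816 by limma with Benjamini-Hochberg adjustment, and voom on rebuilt reads also called 0. The paper reports genes both raised and lowered by I3 at the same thresholds with DESeq. The test here called no gene at all, so it recovered none of them. Its 0 for this pathway therefore does not show that no gene of it changed.

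At an unadjusted p under 0.05, limma placed 2 of the 77 genes, against 4.93% of all genes tested. UQCRHL was the 1 that was higher with I3 (2.08% of all genes were) and COX8A the 1 that was lower (2.85% of all genes were). The 3 I3 values did not overlap with the 3 control values in 4 of the 77 genes, against 9.7% of all genes. In 1 of these, UQCRHL, they lay above the controls (5.06% of all genes), and in 3, COX8A, NDUFC1 and ATP5F1D, they lay below (4.64% of all genes). In each of the 4 the two-sided exact permutation p was 0.1, the smallest that 3 against 3 libraries can give.

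The differences between groups were small in nearly every gene. The log2 fold change of I3 over control lay within 0.15 of 0 in 73 of the 77 genes (94.8%), against 76% of all genes tested, and passed 0.58 in 0 of them, against 2.77%. Its median was -0.0052, beside 0.0107 over all genes, and its SD across genes was 0.101, beside 0.219 over all genes. The 95% interval of the fold change lay within 0.58 of 0 in both directions for 71 genes (81.6% of all genes tested). The 6 whose interval reached further were NDUFV2, NDUFA13, SDHD, COX8A, COX6A1 and ATP5F1D. These comparisons with all genes are not matched for level: 64 of the 77 reached a mean of 5 FPKM, but 6642 of the 12960 did. A narrower spread was therefore not shown to be particular to this pathway. The I3 mean was higher in 34 of the 77 genes, against 54.2% of all genes. This split moved with the scaling, to 28 of 77 with median-of-ratios factors and 45 of 77 after quantile normalization.

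**Figure D1:**
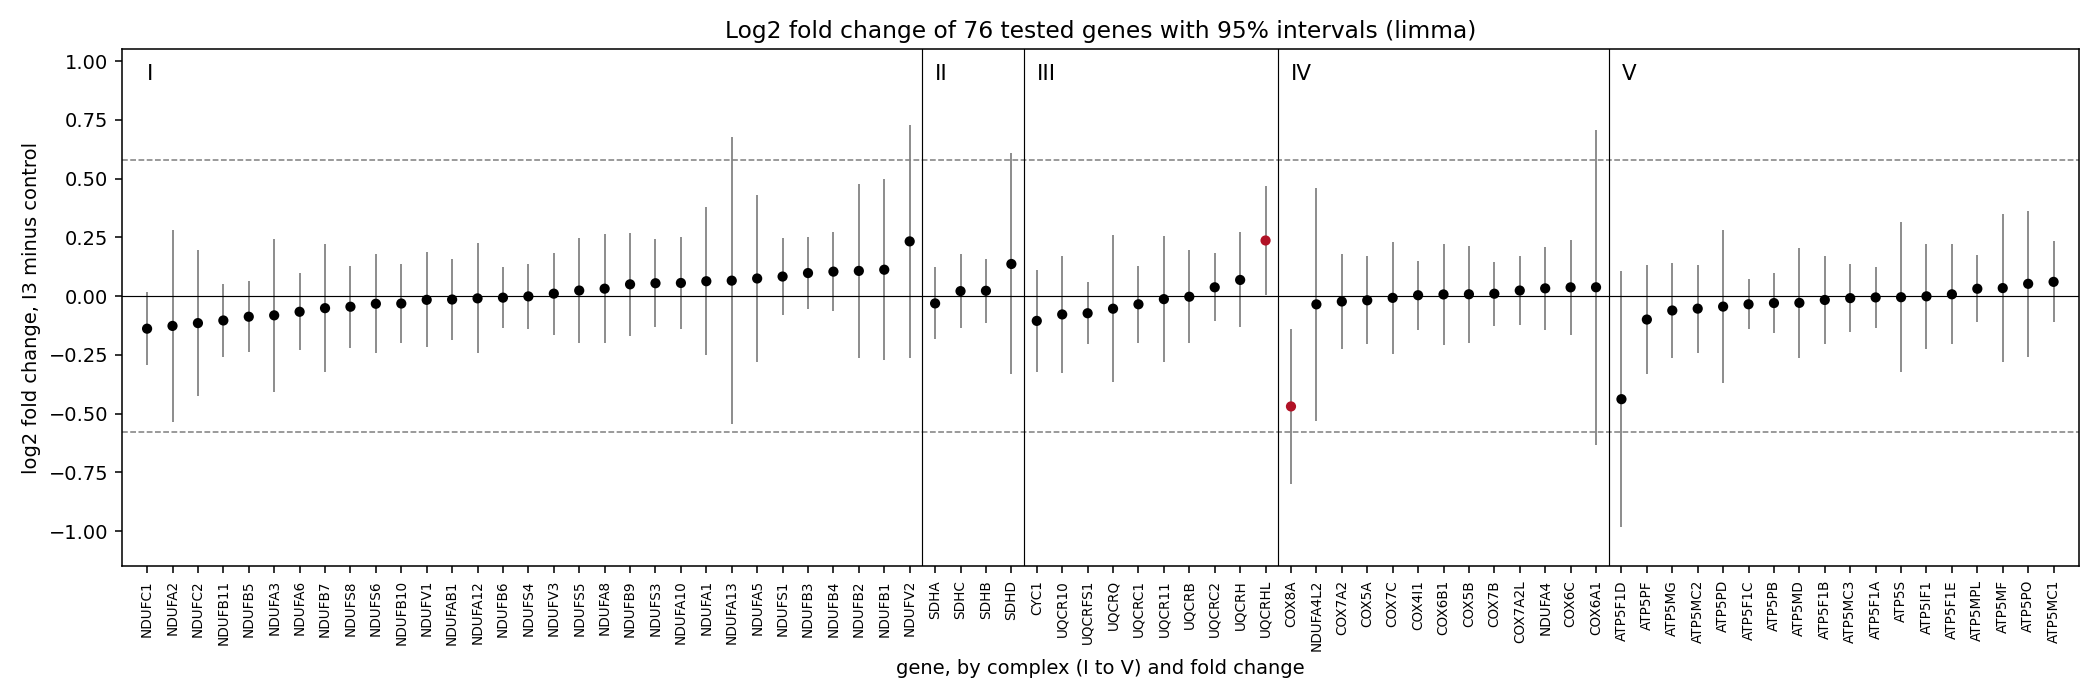
Log2 fold change of I3 over control (y axis, on the scale of log2(FPKM + 0.5)) for 76 tested genes, grouped by complex I to V and ordered within each; bars are 95% intervals from limma, dashed lines mark 0.58 in both directions, and red points are the 2 genes with an unadjusted p under 0.05. Nearly all points lie within 0.15 of 0, and COX8A (-0.47), ATP5F1D (-0.44), UQCRHL (0.24) and NDUFV2 (0.23) lie farthest out.

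Summed over all 89 genes, the level was 3118, 3565 and 3398 FPKM in the control libraries and 3326, 3506 and 3139 FPKM in the I3 libraries. Both groups held a low and a high library, and they overlapped over nearly the whole range, with means of 3360 ± 226 FPKM in control and 3324 ± 183 FPKM in I3 cells (SD, n = 3). These sums were 1.11% to 1.26% of all FPKM in a library. In bulk RNA, fewer cells with these transcripts and less of this RNA per cell cannot be told apart.

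The complexes gave the same picture. Complex I summed to 1005 ± 77.6 FPKM in control and 1000 ± 54.6 FPKM in I3 cells, and complex V, the most abundant per length, to 1126 ± 66.6 and 1103 ± 47.2 FPKM (SD, n = 3). Complex IV summed to 639.7 ± 45.3 FPKM in control and 637.9 ± 44.9 FPKM in I3 cells, and complex III to 519.6 ± 37.5 and 511.8 ± 39.0 FPKM. In each of these complexes the group means differed by less than the SD within either group. Complex II, with its 4 genes, had a steadier sum, at 69.2, 69.0 and 70.1 FPKM in control libraries. In I3 libraries the sum was 69.3, 70.8 and 70.8 FPKM, and here too the groups overlapped. In control 1, SDHD was far above the other controls (10.35 against 6.157 and 5.879 FPKM), while SDHA and SDHB had their lowest control value. The steady sum thus holds genes that moved in opposite directions. The median log2 fold change was -0.0034 in complex I, 0.022 in complex II, -0.023 in complex III, 0.0075 in complex IV and -0.012 in complex V.

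**Figure D2:**
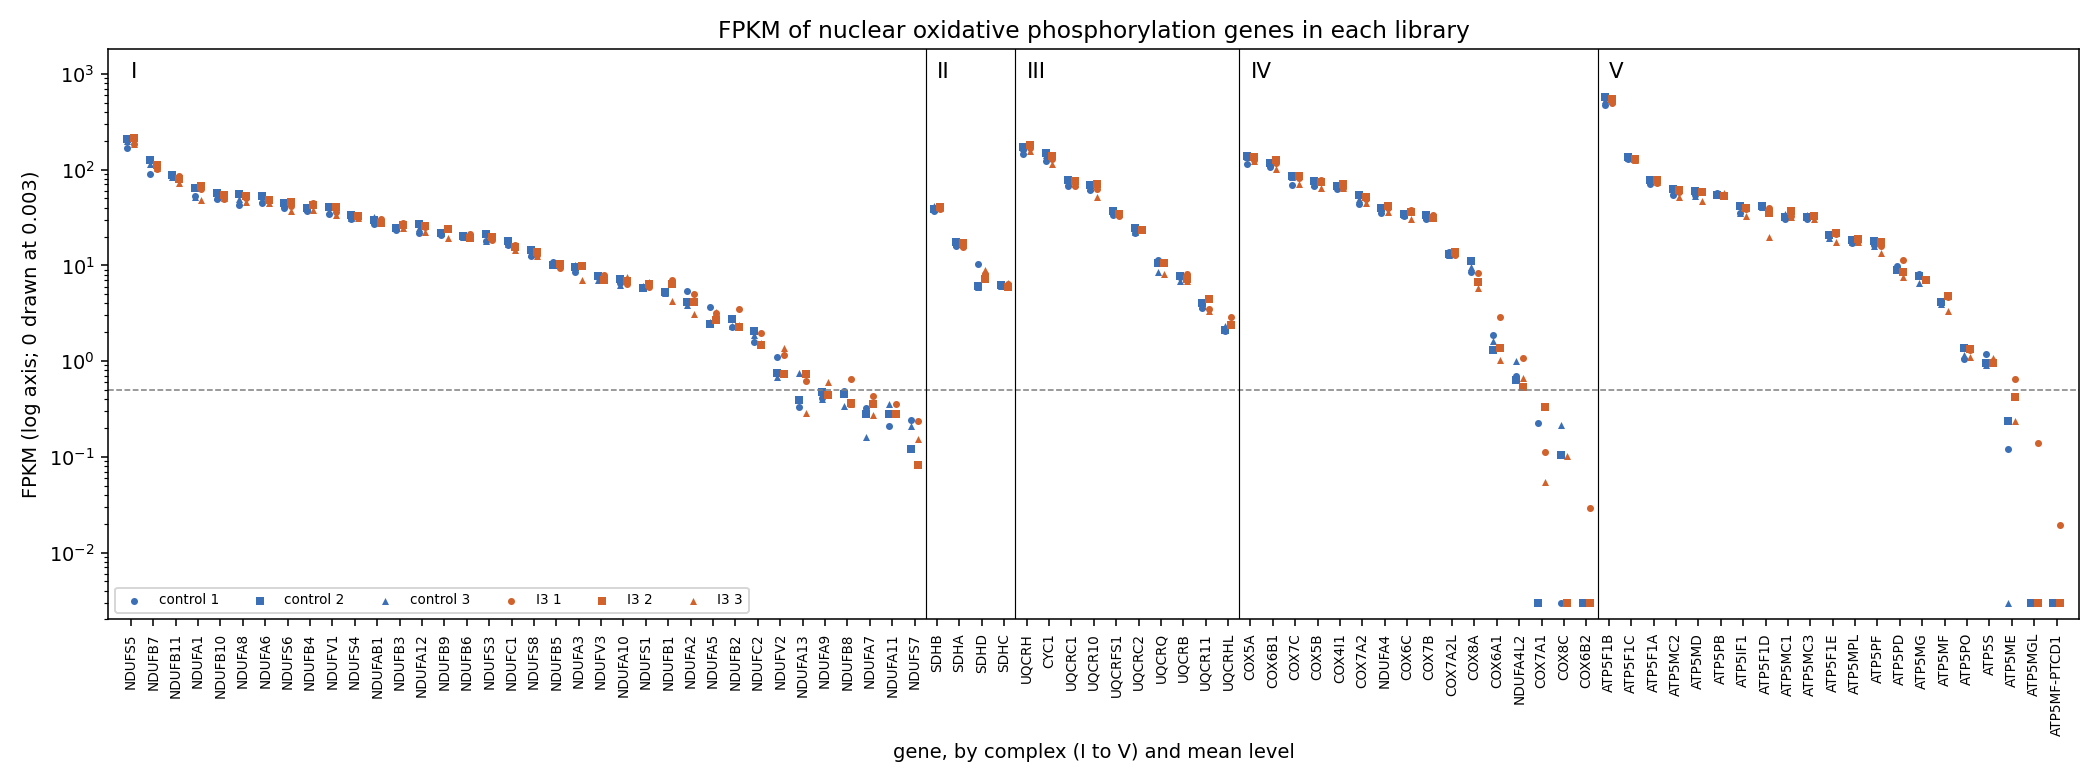
FPKM in each library (y axis, log scale, with 0 drawn at 0.003) of 87 nuclear oxidative phosphorylation genes, grouped by complex I to V and ordered by mean level; blue points are the 3 control and orange the 3 I3 libraries, and the dashed line is the minimum of 0.5 FPKM for the test. COX4I2, at 0 in all 6 libraries, is left out, and control and I3 points lie on each other for most genes above 5 FPKM.

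The genes moved together from library to library, inside both groups. Each gene was set against its own mean over the 6 libraries on the log2 scale, and the median of the 77 deviations was -0.071, 0.074 and 0.0017 in control 1, 2 and 3. In I3 1, 2 and 3 it was 0.027, 0.057 and -0.083. Control 2 and I3 2 were thus the high libraries and control 1 and I3 3 the low ones.

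The counts of genes show this directly. Of the 77 genes, 58 lay above their own mean in control 2 and 53 in I3 2, but only 21 did in control 1 and 14 in I3 3. Over all 12960 genes the median deviation stayed between -0.019 and 0.016, and 43.3% to 54.2% of genes lay above their own mean in a library. Control 1 and I3 3 were the lowest libraries in complexes I, III, IV and V, whereas in complex II the medians ran from -0.035 in control 1 to 0.035 in I3 3. GC content moved with the deviations: the rank correlation across the 77 genes was -0.18, 0.32 and 0.32 in control 1, 2 and 3, and -0.079, 0.18 and -0.34 in I3 1, 2 and 3. These correlations run over genes of a single library, which share its depth and preparation. After each library was corrected for GC content, the medians were -0.067, 0.064 and 0.031 in the controls and 0.015, 0.039 and -0.099 in the I3 libraries, so the order of the extremes stood.

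**Figure D3:**
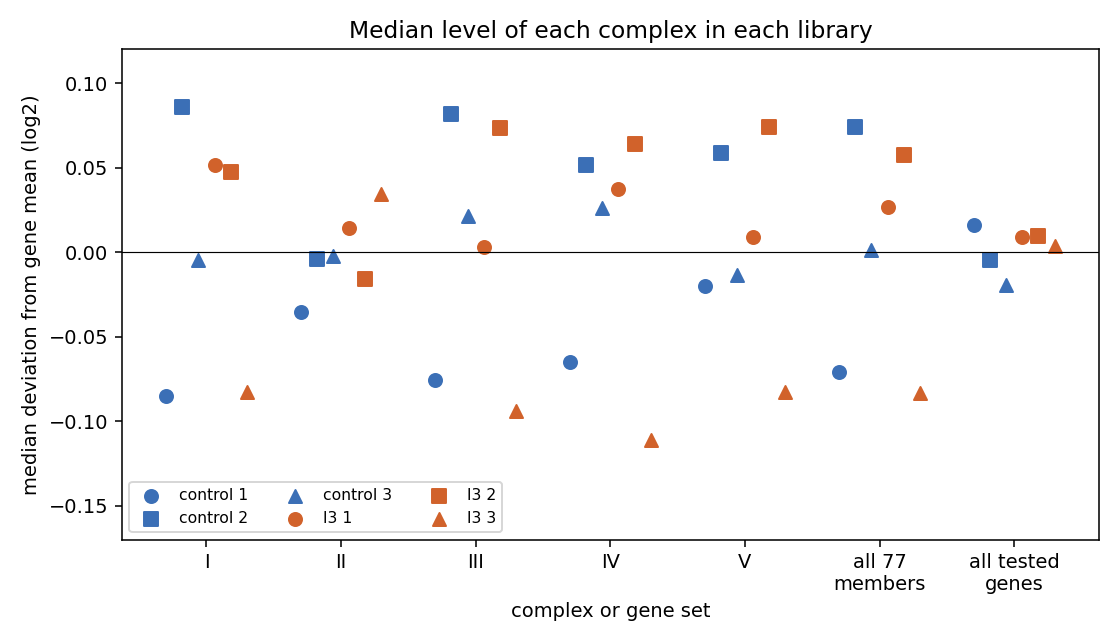
Median deviation of each complex, of all 77 tested genes and of all 12960 tested genes from the gene means (y axis, log2) in the 3 control (blue) and 3 I3 (orange) libraries. In complexes I, III, IV and V, control 1 and I3 3 lie lowest. Complex II, a median over 4 genes, and the whole table stay closer to 0.

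Some promoters of these genes hold sequence features that the choice by symbol did not use. Nuclear respiratory factor 1 (NRF1), the ETS-family GA-binding protein (GABP) and YY1 are known regulators of nuclear genes for mitochondrial proteins. RefSeq promoter windows (GRCh38.p14, 250 bases before to 50 after the start) were found for 68 of the 89 genes and searched on both strands for 3 sets of letters, GCGC and TGCGC with any 1 base between them for NRF1, CCGGAAGT for GABP and AAGATGGCG for YY1. The NRF1 letters were in 17 of the 68 genes (25%), against 6.98% of all 27305 genes with a window and 14.8% of the 8526 protein-coding genes tested here. GABP letters were in 12 genes (17.6%), against 4.95% and 11.1%, and YY1 letters in 9 (13.2%), against 2.14% and 5.18%. At least 1 of the 3 was in 33 genes (48.5%), against 12.8% and 27.9%, and 5 genes held 2 kinds. The 68 genes include some under the minimum for the test, which the 8526 leave out. With NRF1 letters these were ATP5ME, COX8C, NDUFA11 and NDUFA9, and with YY1 letters NDUFA7, NDUFA9, NDUFB8 and NDUFS7. The shares set against the 8526 are therefore not like for like. In these windows no match of a motif shared a base with a match of another motif, and a match describes the sequence only, not a bound site.

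Among complex II genes, SDHA stood out for its NRF1 letters. Its window held 4 copies, each the reverse complement of the letters searched, spaced 49 bases apart. Neighbouring blocks of 49 bases, aligned on the match, were identical at 23, 36 and 29 positions. These counts include the bases of the match itself, which are the same in every block by construction. The last block runs past the start and beyond the stretch shown. The stretch is shown because of this repeat, with the 4 matches in capitals (chr5:218145-218314, plus strand, upstream of the SDHA start).
SDHA: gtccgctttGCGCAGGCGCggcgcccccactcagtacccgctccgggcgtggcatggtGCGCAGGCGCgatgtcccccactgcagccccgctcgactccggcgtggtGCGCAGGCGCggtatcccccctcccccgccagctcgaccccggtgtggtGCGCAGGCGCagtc

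SDHD, which encodes a membrane anchor of complex II, held both NRF1 and GABP letters (chr11:112086753-112086812, plus strand). COX8A, the gene with the largest fold change of the set, held GABP letters close to its start (chr11:63974575-63974619, plus strand). UQCRC1 (chr3:48609672-48609706, minus strand) and UQCRFS1 (chr19:29213162-29213196, minus strand), of complex III, held the same NRF1 letters at a similar distance from the start. They are shown to compare the matches, which are in capitals.
SDHD: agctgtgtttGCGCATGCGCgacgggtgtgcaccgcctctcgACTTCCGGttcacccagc
COX8A: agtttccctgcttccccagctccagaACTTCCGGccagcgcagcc
UQCRC1: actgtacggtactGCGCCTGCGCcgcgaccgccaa
UQCRFS1: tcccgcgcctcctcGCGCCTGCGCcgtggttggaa

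The motifs differed in position. Of 26 NRF1 matches, 25 lay upstream of the start, at a median of -55 bases, and all 13 GABP matches lay upstream, at a median of -49. Of 9 YY1 matches, 8 lay downstream, and the median position over all 9 was 18 bases after the start. The downstream matches are shown for 4 genes from 3 complexes, with the YY1 letters in capitals: UQCRC1 (chr3:48609610-48609631, minus strand), SDHB (chr1:17054009-17054030, minus strand), NDUFS4 (chr5:53560652-53560673, plus strand) and NDUFA6 (chr22:42090734-42090755, minus strand).
UQCRC1: gcagctggAAGATGGCGgcgtc
SDHB: caggagccAAGATGGCGgcggt
NDUFS4: cctgcagcAAGATGGCGgcggt
NDUFA6: gctttggcAAGATGGCGgggag

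In complex I, the 7 core subunits carry the flavin and iron-sulfur clusters of the NADH-oxidizing arm, and the other 30 genes encode supernumerary subunits. Among the core genes NDUFV1, which binds NADH and the flavin, was highest, at 34.4, 40.6 and 36.7 FPKM in control and 36.3, 40.3 and 33.9 FPKM in I3 libraries. The lowest core gene was NDUFS7, with a mean of 0.174 FPKM, and NDUFV2 had a mean of 0.843 ± 0.232 FPKM in control and 1.09 ± 0.332 FPKM in I3 cells (SD, n = 3). Both share coding bases with other gene models, as described further on, so their levels are not compared with those of other subunits. NDUFS1, the large iron-sulfur subunit, was at 5.78 FPKM in its lowest library. Of the 6 core genes tested, 3 had a higher mean with I3.

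NDUFS5, a supernumerary subunit, was the highest gene of complex I, at 168, 208 and 201 FPKM in control and 186, 212 and 187 FPKM in I3 libraries. NDUFB7 followed at 90.8, 125 and 116 FPKM in control and 100.8, 111.9 and 105 FPKM in I3 libraries. In both genes control 1 was the lowest library, and the groups overlapped.

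The largest fold changes in complex I were in NDUFV2 (0.23, SE 0.211) and NDUFB1 (0.11, SE 0.164) upward, and in NDUFC1 (-0.14, SE 0.066) and NDUFA2 (-0.13, SE 0.174) downward. NDUFC1, a supernumerary subunit of the membrane arm, was at 16.25, 17.92 and 16.9 FPKM in control and 16.22, 15.46 and 14.58 FPKM in I3 libraries. The groups did not overlap, but the highest I3 library lay just under the lowest control. Its adjusted p was 0.998 by limma with Benjamini-Hochberg adjustment, on 515 to 619 reads per library. NDUFB1 was at 5.45, 5.26 and 5.20 FPKM in control and 7.09, 6.36 and 4.25 FPKM in I3 libraries, so that I3 3 alone lay below the controls. Without I3 3, NDUFB1 and 2 other supernumerary genes, NDUFB4 and NDUFB9, were higher at an unadjusted p under 0.05, a level that 3.62% of all genes reached in either direction without that library.

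Complex II, succinate dehydrogenase, links the TCA cycle to the respiratory chain. Its catalytic subunits are SDHA, the flavoprotein, and SDHB, the iron-sulfur protein, and SDHC and SDHD anchor them in the membrane. SDHB was highest, at 36.8, 39.0 and 41.3 FPKM in control and 39.2, 40.5 and 39.3 FPKM in I3 libraries. SDHA was at 15.8, 17.6 and 16.8 FPKM in control and 15.7, 17.2 and 16.2 FPKM in I3 libraries. For both genes the I3 libraries lay among the controls or just beside them, with fold changes of 0.023 (SE 0.058) for SDHB and -0.031 (SE 0.065) for SDHA.

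SDHC was nearly level over the 6 libraries, from 5.87 to 6.55 FPKM. SDHD was at 10.4, 6.16 and 5.88 FPKM in control and 8.05, 7.17 and 8.85 FPKM in I3 libraries. Control 1 was thus far above the other controls, and the I3 values fell between. The fold change was 0.14 (SE 0.200), and without control 1 it was 0.38, at an unadjusted p under 0.05. In GENCODE 29, 47.7% of the coding bases of SDHD lie in exons of other gene models on the same strand, with the largest exon overlap from AP002884.3.

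In complex III, CYC1 (cytochrome c1) and UQCRFS1 (the Rieske iron-sulfur protein) are the catalytic subunits encoded in the nucleus. CYC1 was at 124, 148 and 142 FPKM in control and 129.9, 139.6 and 116 FPKM in I3 libraries, and its fold change of -0.11 (SE 0.092) was the lowest of the complex. UQCR10, a small supernumerary subunit, was next lowest, at -0.078 (SE 0.106). UQCRFS1 was at 35.8 ± 1.68 FPKM in control and 34.0 ± 0.863 FPKM in I3 cells (SD, n = 3). In CYC1 and UQCRFS1 the groups overlapped, and I3 3 held the lowest CYC1 value.

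UQCRH, the hinge protein that helps cytochrome c to dock, was the highest gene of complex III, at 144, 171 and 169 FPKM in control and 168, 183 and 157 FPKM in I3 libraries. Its fold change was 0.069 (SE 0.086). UQCRHL, an intronless copy of it on chromosome 1 (chr1:15807169-15809348, minus strand, GENCODE 29), was the lowest, at 2.05, 2.09 and 2.31 FPKM in control and 2.91, 2.40 and 2.57 FPKM in I3 libraries. All 3 I3 libraries lay above all 3 controls, and the fold change was 0.24 (SE 0.0995), with an adjusted p of 0.998 by limma with Benjamini-Hochberg adjustment. UQCRHL took 1.32% ± 0.1 of the summed level of the pair in control and 1.54% ± 0.215 in I3 cells (SD, n = 3; exact permutation p = 0.3, two-sided, with 0.1 the smallest possible). The copy rests on 79 to 113 reads per library, and the sources used here do not say how reads that fit both genes were counted, so its value is uncertain. UQCR11 was the next lowest, at 3.32 to 4.47 FPKM. All of its coding bases lie in exons of other gene models on the same strand, with the largest exon overlap from AC005943.1.

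In complex IV, cytochrome c oxidase, nuclear genes encode the subunits around the mitochondrially encoded catalytic core, and several of them come as a general and a tissue form. The general forms made up nearly all of the RNA. COX5A and COX6B1 were highest, with means of 129 and 114 FPKM over the 6 libraries. COX4I1, which is needed to assemble the complex, was at 63.5, 67.9 and 67.6 FPKM in control and 64.5, 71.4 and 63.7 FPKM in I3 libraries, and COX4I2, its lung and low-oxygen form, had no read in any library. A count of 0 allows up to 3 reads, or at most 0.247 FPKM for COX4I2. COX6B2, a testis form, had 2 reads in all, COX8C, another testis form, 4 and COX7A1, the muscle form, 13, so no difference was detectable at this depth.

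NDUFA4 was 98.0% ± 0.445 of the summed NDUFA4 and NDUFA4L2 level in control and 98.1% ± 0.702 in I3 cells (SD, n = 3). NDUFA4L2, a form known to be induced by low oxygen, had 0.782 ± 0.190 FPKM in control and 0.762 ± 0.282 FPKM in I3 cells (SD, n = 3). Among the COX7A genes, COX7A2 held 78.6% ± 2.29 of the summed level in control and 78.0% ± 1.21 in I3 cells, and COX7A2L, which acts in joining complexes III and IV into supercomplexes, held 21.2% ± 2.07 and 21.7% ± 1.30 (SD, n = 3). The exact permutation p was 0.7 for both shares. COX7B was at 32.1 ± 1.43 FPKM in control and 32.4 ± 1.22 FPKM in I3 cells (SD, n = 3). For NDUFA4 and the COX7A genes the shares in the 2 groups differed by less than the SD within either group.

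COX8A, a small subunit of complex IV that spans the membrane, had the largest fold change of the 77 genes. It was at 8.60, 11.1 and 9.69 FPKM in control and 8.41, 6.65 and 5.85 FPKM in I3 libraries. All 3 I3 libraries lay below all 3 controls, although I3 1 was close to control 1. The means were 9.79 ± 1.25 and 6.97 ± 1.31 FPKM (SD, n = 3), and the fold change was -0.47 (SE 0.141, 95% interval -0.80 to -0.14). Its adjusted p was 0.816 by limma with Benjamini-Hochberg adjustment, and from 0.376 to 1.0 over the alternatives tried. The value rests on 54 to 100 reads per library. In COX8A (chr11:63974607-63976543, plus strand, GENCODE 29), 55.1% of the coding bases lie in exons of other gene models on the same strand. The largest exon overlap is with AP000721.1. COX6A1, the other general subunit with few reads, was at 1.85, 1.30 and 1.62 FPKM in control and 2.88, 1.38 and 1.02 FPKM in I3 libraries, so that the I3 libraries held both the highest and the lowest value. The remaining tested genes of complex IV had fold changes from -0.035 (NDUFA4L2) to 0.038 (COX6C).

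In complex V, ATP5F1A to ATP5F1E encode the catalytic head and central stalk. ATP5F1B, the catalytic beta subunit, was the highest of all 89 genes, at 476, 572 and 535 FPKM in control and 493, 550.2 and 520.4 FPKM in I3 libraries. ATP5F1C, the gamma subunit of the rotating stalk, followed at 132 ± 3.38 FPKM in control and 129 ± 1.86 FPKM in I3 cells (SD, n = 3). ATP5F1A, the alpha subunit, was at 75.3 ± 3.57 FPKM in control and 75.03 ± 2.16 FPKM in I3 cells (SD, n = 3). It had more reads than ATP5F1C, 43528 against 16308 in the controls together, over a longer annotated exon length. In these 3 genes the groups overlapped, and control 1 was the lowest library of ATP5F1B, as it was of NDUFS5.

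ATP5F1D, the delta subunit of the central stalk, was at 40.9, 42.2 and 41.0 FPKM in control and 39.8, 35.6 and 19.8 FPKM in I3 libraries. All I3 libraries lay below the controls, but I3 1 by little, and I3 3 was by far the lowest library. The fold change was -0.44 (SE 0.232), with an adjusted p of 0.998 by limma with Benjamini-Hochberg adjustment. Without I3 3 it was -0.13, and with I3 3 in and each library corrected for GC content it was -0.33. The median GC content of its annotated transcripts was 68.1%, and the rank correlation with GC content given above was lowest in I3 3 (-0.34). Whether GC content bears on the low I3 3 value was not tested. ATP5F1E, the epsilon subunit of the same stalk, was at 20.0 ± 0.821 FPKM in control and 20.2 ± 2.35 FPKM in I3 cells (SD, n = 3).

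ATP5MC1, ATP5MC2 and ATP5MC3 encode the same mature protein of the rotating c ring with different import signals. ATP5MC2 held 47.2%, 49.4% and 46.7% of their summed level in control and 47.0%, 46.7% and 45.4% in I3 libraries. ATP5MC1 held 26.6%, 25.2% and 26.9% in control and 26.7%, 28.2% and 27.9% in I3 libraries. The shares of both genes overlapped between the groups (exact permutation p = 0.2 for each, two-sided), and ATP5MC3 held 26.0% in both. ATP5MC1 had the largest upward fold change of complex V, 0.061 (SE 0.074), and ATP5PO, the subunit that ties the head to the peripheral stalk, the next, 0.053 (SE 0.132). The lowest after ATP5F1D was ATP5PF, another peripheral stalk subunit, at -0.099 (SE 0.099). ATP5IF1, the inhibitor that stops the enzyme from consuming ATP, was at 37.2 FPKM in both groups.

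At the low end of complex V, ATP5ME, a small membrane subunit, was at 0.121, 0.239 and 0 FPKM in control and 0.657, 0.419 and 0.234 FPKM in I3 libraries. The groups overlapped by a small margin, on 6 reads in all controls and 22 in all I3 libraries, and the gene was under the minimum for the test. ATP5MGL, a copy of ATP5MG, had 2 reads in all, and ATP5MF-PTCD1, a read-through of ATP5MF and its neighbour PTCD1, had 1, so neither can be compared between groups.

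A low level went with overlapping gene models. In 16 of the 89 genes, coding bases lay in exons of another gene on the same strand, and their median level was 1.09 FPKM, with none above 8.38 FPKM and 6 under 0.5 FPKM. In 10 genes such overlap was on the opposite strand only, with a median of 5.84 FPKM. The other 63 shared no coding base, and had a median of 34.2 FPKM, with 4 under 0.5 FPKM. Among all protein-coding genes of the table the medians were 0.863, 2.76 and 3.42 FPKM, so the direction was not particular to these genes. The gap was wider in these genes, however. Under 0.5 FPKM were 37.5% of them with overlap on the same strand and 6.35% without shared coding bases. Among all protein-coding genes the shares were 43.7% and 32.6%.

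The genes under the minimum included subunits that every complex I is known to contain. NDUFA9 (0.464 FPKM), NDUFB8 (0.440), NDUFA7 (0.305) and NDUFA11 (0.294) shared 67.9%, 85.2%, 78.3% and 36.9% of their coding bases on the same strand. NDUFA13 (0.520 FPKM) and NDUFV2 (0.965 FPKM), just above it, shared 55.2% and 84.7%. NDUFS7 shared 48.5% and ATP5ME 44.0%, both on the opposite strand only. Of the 16 partners with the largest overlap on the same strand, 15 were protein-coding gene models, such as AP000721.1 for COX8A. Whether reads in shared bases were left out of the counts was not tested, and the sources used here do not give the counting rule, so the levels of these genes may not be set against those of other subunits.

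**Figure D4:**
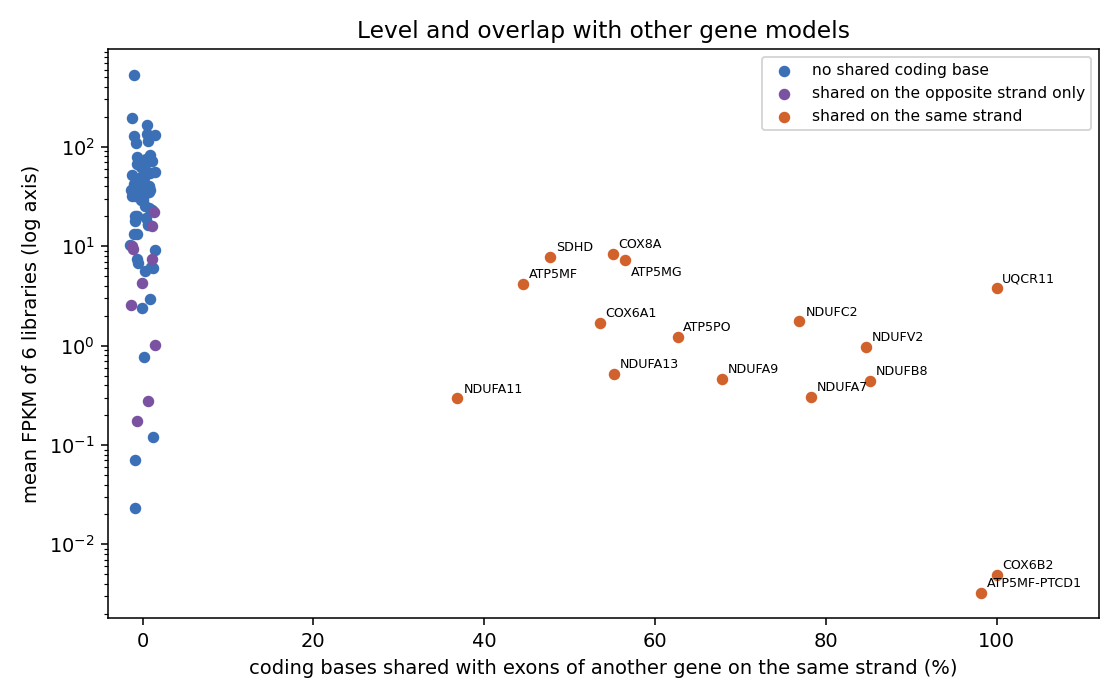
Mean FPKM over the 6 libraries (y axis, log scale) against the share of coding bases that lie in exons of another gene on the same strand in GENCODE 29 (x axis, %), for 88 genes; blue points share no coding base, purple points share on the opposite strand only, orange points share on the same strand, and points at 0% are spread sideways by chance to be visible. All 16 orange points lie at or below 8.38 FPKM, and COX4I2, at 0 FPKM, is left out.

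Other genes of the pathway were measured in the same fit, and limma with Benjamini-Hochberg adjustment called 0 of them. Their counts at an unadjusted p under 0.05 are to be read against 2.08% of all tested genes that were higher and 2.85% that were lower with I3. The 13 mitochondrially encoded subunits took 11.8% to 12.7% of all FPKM in a library, and their median fold change was -0.019, with 0 of 13 at an unadjusted p under 0.05. MT-CO1, the catalytic subunit of complex IV, was at 5357 ± 172 FPKM in control and 5532 ± 240 FPKM in I3 cells (SD, n = 3). MT-ATP8 was the exception in level, at 17.8 ± 3.17 and 23.8 ± 8.19 FPKM (SD, n = 3), and it shares 21.1% of its coding bases with MT-ATP6, which overlaps it.

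Of 48 assembly factors tested, 2 were higher (COA5 and ATPAF2) and 1 was lower (TTC19) with I3 at an unadjusted p under 0.05, with a median fold change of 0.028. NDUFAF8, a complex I assembly factor named here after its values were seen, had the largest fold change of the list (-0.74, SE 0.518), with 40.2, 46.5 and 44.6 FPKM in control and 43.6, 40.9 and 9.63 FPKM in I3 libraries. The groups overlapped, and I3 3 alone was low. TTC19, which acts on complex III, was at 8.44, 8.29 and 8.30 FPKM in control and 7.17, 6.73 and 6.57 FPKM in I3 libraries. The groups did not overlap, and the fold change was -0.27 (SE 0.062, adjusted p = 0.652 by limma with Benjamini-Hochberg adjustment). Among 14 tested genes of the electron carriers ubiquinone and cytochrome c, COQ2 (-0.32, SE 0.090) and COQ3 (-0.19, SE 0.066), both of ubiquinone synthesis, were lower and 0 were higher, with a median of -0.084. Their adjusted p-values were 0.812 and 0.932 by limma with Benjamini-Hochberg adjustment.

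Among 20 regulators tested, TFB1M (0.15, SE 0.062), which modifies mitochondrial ribosomal RNA, was higher and ESRRA (-0.25, SE 0.086), a nuclear receptor of respiratory genes, was lower at an unadjusted p under 0.05, with a median of 0.046. NRF1 was at 6.81 ± 0.744 FPKM in control and 6.26 ± 0.303 FPKM in I3 cells, and YY1 at 19.7 ± 0.649 and 19.8 ± 0.806 FPKM (SD, n = 3). PPARGC1A, a coactivator of NRF1 and ESRRA, had no read in any library. Of 17 TCA cycle genes 1 was higher (IDH3A, 0.20, SE 0.070) and 0 were lower, and of 74 genes of the mitochondrial ribosome 1 was lower (MRPL34, -0.21, SE 0.056) and 0 were higher, with medians of -0.0022 and -0.026. After rescaling to TPM, with median-of-ratios factors or with a minimum of 5 FPKM, 1 to 2 regulators and 0 to 1 TCA cycle genes passed.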

How the data were processed

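The submitters' processing notes name Trimmomatic, HISAT2, Cufflinks, HTSeq and hg38, without versions or roles, and the sources used here do not give the annotation. The authors tested differential expression with DESeq, a test for counts, but deposited FPKM values, 1 column per library, and all 6 columns were used. Expression was therefore compared with limma 3.58.1 under R 4.3.3, two-sided, with a variance trend in eBayes, on log2(FPKM + 0.5), a scale that understates changes of low genes. Genes with a mean under 0.5 FPKM were left out. The adjustment ran over all genes tested.

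Gene models, exon lengths and GC content were taken from GENCODE 29 (29703 of 29810 genes matched). Reads were rebuilt from FPKM and exon length, and 95.4% of 26519 genes above 0 had whole values at a tolerance of 0.1 read, which gave the depth. Limits from a count of 0 cover counting error only. Exact permutation tests used scipy 1.17.1, tables pandas 2.3.3 in Python 3.11.15 and plots matplotlib 3.10.9. The procedure was tested on simulated data.

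The genes described were the 2 highest, 2 lowest, 2 most raised and 2 most lowered genes of each complex, those with an unadjusted p under 0.05, those under 0.5 FPKM, the isoform sets, the SDH genes and read-throughs. Of the genes counted, 1 is not reported here by itself. These genes, the other lists and the tests were chosen with earlier results of these data known. Alternatives were pseudocounts of 0.1 and 1, no minimum and a minimum of 5 FPKM, TPM, median-of-ratios and quantile scaling, eBayes without trend, a replicate block, a GC correction (lowess, span 0.3), voom on reads (mean of at least 10) and each library left out.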

Additional observations from a re-analysis of the deposited data

How the results depend on the processing

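Under all 17 alternatives limma called 0 of the nuclear oxidative phosphorylation genes at the thresholds of the study. The 1 gene that was higher at an unadjusted p under 0.05, UQCRHL, did not pass with median-of-ratios scaling, quantile normalization, the GC correction or voom. Each of these left 0. A minimum of 5 FPKM also left 0, but UQCRHL, with a mean of 2.39 FPKM, was not tested there. Rescaling to TPM gave 2, with ATP5ME above the minimum, and with no minimum ATP5ME took the place of UQCRHL. With each library left out in turn the count ran from 0 to 3, and the 3, without I3 replicate 3, were NDUFB1, NDUFB4 and NDUFB9. The 1 gene that was lower, COX8A, passed under every alternative, with fold changes from -0.60 without I3 replicate 1 to -0.36 without I3 replicate 3. The count of lower genes was 2 with the GC correction (NDUFC1 added) and 2 with voom (ATP5F1D added), and ran from 1 to 3 with each library left out. The 3 were found without control replicate 1 (NDUFC1, COX8A and NDUFB7), where SDHD was the 1 higher gene and 11% of all genes passed in either direction. The cause was not tested.

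The median fold change of the 77 genes ran from -0.038 to 0.030 with each library left out and from -0.019 to 0.0086 under the other alternatives, and the medians of the 5 complexes moved by less than the spread between libraries. Rescaled to TPM, 48 of 83 genes had a higher mean with I3. The GC correction moved the fold changes of NDUFB6 (to -0.056), NDUFB5 (to -0.15) and ATP5F1C (to -0.080) by more than the SD between replicates.

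Replicate numbers are shared by the groups, but the deviations of same-numbered libraries correlated at 0.063, 0.15 and -0.024 over genes, so the numbers were not read as pairs. With the replicate block the counts were 0 higher and 1 lower, and 0 were called. Depth limits the genes with few reads, such as COX8A.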
